A study of Mus musculus with 16 samples.

Results

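The 10 enzymes described here build triglyceride or supply its glycerol backbone in fat cells. They are Gpam, Gpat3, Agpat2, Lpin1, Mogat1, Dgat1, Dgat2, Gpd1, Pck1 and Gk, chosen by gene name, and all 10 were found among the 54532 genes of the deposited tables. The libraries are bulk RNA from gonadal white fat of female C57BL/6 mice, an inbred strain. The 16 libraries fall into 6 groups. On the high-fat diet there were 3 mature adipocyte libraries from stressed mice and 3 from controls, and 4 preadipocyte libraries from stressed mice and 4 from controls. The low-fat diet is represented by 1 preadipocyte library from stressed mice and 1 from controls; no mature adipocyte library was analysed here. Stressed mice were taken from the dam daily on postnatal days 2 to 16 and weaned on day 17 (maternal separation and early weaning), while controls were left with the dam and weaned on day 21. The labels give no age at tissue collection. They also do not state whether each library is its own animal, and the p-values cover only library-to-library spread, part or all of which may be technical.

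Triglyceride is made by adding fatty acyl chains to glycerol 3-phosphate. Glycerol-3-phosphate acyltransferases (Gpam, Gpat3) add the first chain, acylglycerol-phosphate acyltransferases (Agpat2) the next, lipins (Lpin1) remove the phosphate to give diacylglycerol, and diacylglycerol acyltransferases (Dgat1, Dgat2) add the last chain. Mogat1 makes diacylglycerol by a separate route, from monoacylglycerol. White fat cells take glycerol 3-phosphate from glucose through Gpd1, or from pyruvate and amino acids through glyceroneogenesis, whose controlling enzyme is the cytosolic phosphoenolpyruvate carboxykinase Pck1, and white fat is known for little glycerol kinase (Gk), which reuses free glycerol.

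Library totals ran from 14182130 to 23368821 counts. Control preadipocyte libraries 1 and 3 on the high-fat diet differed far less than any other pair, at 21.4% of genes against at least 50.5% in the other 17 pairs within a group. They were counted as 1 sample, so n = 3 for that group in every mean and 13 high-fat libraries entered the fits. The 10 markers of mature adipocytes summed to 18754 to 62948 CPM (counts relative to TMM-adjusted library size) in mature adipocyte libraries and to 279 to 830 CPM in preadipocyte libraries. The 8 progenitor markers summed to 479 to 1022 CPM in mature adipocyte libraries and to 7539 to 18344 CPM in preadipocyte libraries, so each label went with its defining markers. Other cell types were present: the 6 macrophage markers summed to 1305 to 4705 CPM in adipocyte libraries and to 836 to 5743 CPM in preadipocyte libraries, and every one of these 24 markers was above 0 in every library. Control adipocyte libraries 1 and 3 held few rare transcripts, with 18091 and 15344 genes detected. Stress adipocyte library 2 came next, with 18400 genes, against 20439 to 20964 in the other adipocyte libraries. Stress preadipocyte libraries 3 and 4 held only 85 and 24 counts of the adipocyte hormone gene Adipoq. The other high-fat preadipocyte libraries held 463 to 1095. The 10 adipocyte markers together were not low there: they summed to 588 and 530 CPM, against 489 to 830 CPM in the other high-fat preadipocyte libraries. The macrophage sums of these libraries, 4781 and 5743 CPM, were the highest of all libraries. Calls are given without control adipocyte libraries 1 and 3, and without stress preadipocyte libraries 3 and 4, where they change.

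All 10 enzymes were higher in mature adipocytes than in preadipocytes on the high-fat diet, between 3.99-fold (Gpam) and 148-fold (Pck1). For comparison, 26.4% of all 16679 genes tested were called higher in adipocytes (edgeR quasi-likelihood F test, adjusted p below 0.05), and 35.0% lower. The median log2 fold change of the 10 enzymes was 5.21, against -0.25 over all genes tested. The enzymes' summed counts made up 0.485% to 1.07% of each adipocyte library and 0.0172% to 0.0282% of each preadipocyte library. In 8 of the 10 enzymes no adipocyte library overlapped any high-fat preadipocyte library, against 17.3% of all genes tested; the exceptions were Gpam and Gk. Cell type markers moved with the fractions too: all 6 endothelial markers rose and all 8 progenitor markers fell, the endothelial ones summing to 363 to 1817 CPM in adipocyte libraries and 73.0 to 578 CPM in preadipocyte libraries, and their part in the enzymes' values was not tested. A lower level in a bulk library can come from fewer cells of a type or less RNA per cell, which cannot be told apart here.

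**Figure D1:**
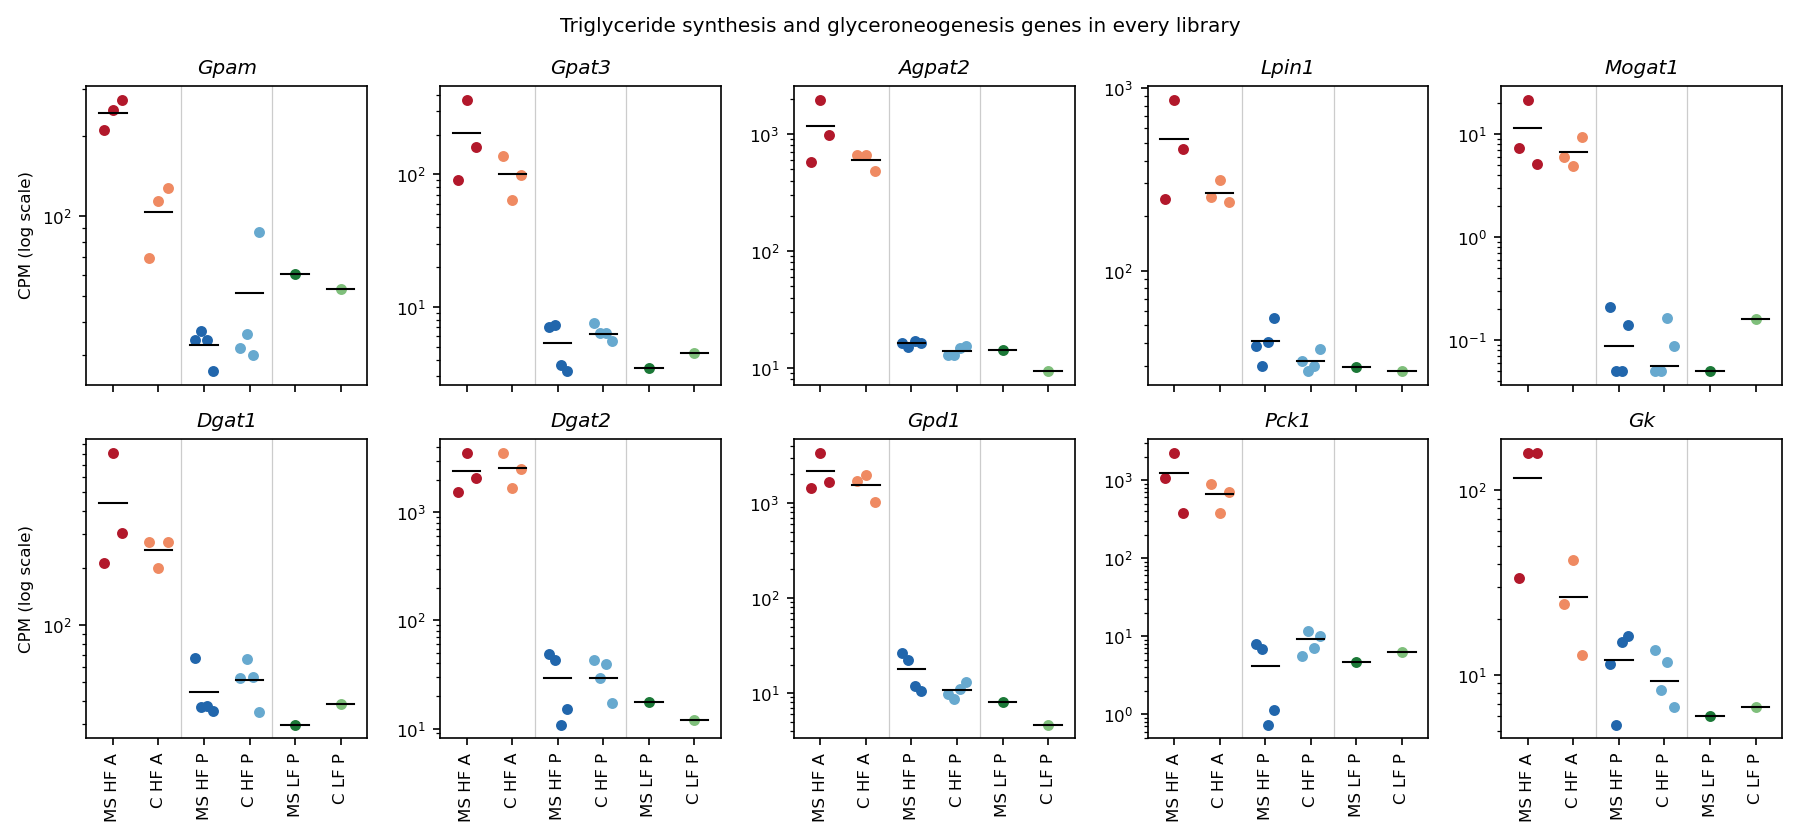
Each panel shows 1 enzyme in all 16 libraries, as CPM on a log axis, by group: MS is separation and early weaning, C control, HF and LF the high-fat and low-fat diet, A mature adipocytes and P preadipocytes. Points are libraries and lines are group means; a library without a count is drawn at 0.05 CPM. The adipocyte libraries lie above every high-fat preadipocyte library for all enzymes but Gpam and Gk.

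The enzymes of the first acylation step differed in how far they rose. Gpam, the mitochondrial glycerol-3-phosphate acyltransferase (chromosome 19, 55069734 to 55099451, minus strand, GRCm38), stood at 211, 249 and 274 CPM in stress adipocytes and 69.5, 114 and 128 CPM in control adipocytes. In preadipocytes it stood at 34.2, 36.9, 34.3 and 26.1 CPM under stress and 31.8, 36.1, 29.9 and 86.9 CPM in controls. Control preadipocyte library 4 lay above control adipocyte library 1, which is the overlap between the fractions. The log2 fold change of Gpam between fractions was 2.00 ± 0.35 (SE; adjusted p = 0.000177), and in the control libraries alone it was 1.06 (adjusted p = 0.0825), the only enzyme whose call was lost there. Gpat3, the endoplasmic reticulum enzyme of the same step (chromosome 5, 100845713 to 100899102, plus strand), had 90.4, 367 and 161 CPM in stress adipocytes, 138, 64.0 and 99.6 CPM in control adipocytes and 3.26 to 7.59 CPM in the 8 high-fat preadipocyte libraries. It was 24.97-fold higher in adipocytes (log2 4.64 ± 0.40, adjusted p = 2.85e-07), with no overlap.

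Agpat2, which makes phosphatidic acid and whose loss causes generalised lipodystrophy in people, lies on chromosome 2 at 26593057 to 26604417, minus strand. It stood at 578, 1971 and 988 CPM in stress adipocytes, at 665, 659 and 483 CPM in control adipocytes and at 12.8 to 17.1 CPM in the high-fat preadipocytes. The preadipocyte values were the tightest of the set, with a highest library 1.33 times the lowest. The log2 fold change was 5.79 ± 0.30 (adjusted p = 5.50e-09). The gene Egfl7 on the opposite strand overlaps Agpat2 by 64 bases. It had 581 to 1875 counts in adipocyte libraries and 52 to 580 in high-fat preadipocyte libraries, against 6050 to 29866 and 279 to 387 of Agpat2. Opposite-strand genes also overlap Mogat1 (BC035947, 1168 bases), Gpat3 (4930458D05Rik, 1455 bases), Gpd1 and Gk. BC035947 had 9 to 56 counts in adipocyte libraries, against 90 to 326 of Mogat1. For Gpat3, 4930458D05Rik had 3 to 82 counts in adipocyte libraries and 9 to 27 in high-fat preadipocyte libraries. Gpat3 itself had 1189 to 5564 and 69 to 190. Those of Gpd1 and Gk had at most 16 counts. The strand setting of the counting is not given in the sources used here.

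Lpin1, the lipin that also acts as a transcriptional coactivator (chromosome 12, 16535669 to 16610966, minus strand), was at 245, 863 and 465 CPM in stress adipocytes and 251, 312 and 237 CPM in control adipocytes, against 28.3 to 54.7 CPM in high-fat preadipocytes. It was 10.2-fold higher in adipocytes (log2 3.35 ± 0.27, adjusted p = 1.91e-07). Mogat1 (chromosome 1, 78510991 to 78538173, plus strand) had the lowest mean FPKM (length-scaled level) of the set in both fractions, although in control adipocytes taken alone Gk was lower. It gave 147, 326 and 100 counts in stress adipocytes and 106, 90 and 118 in control adipocytes, against 5, 0, 0 and 3 counts in stress preadipocytes and 0, 0, 4 and 2 in control preadipocytes. Its fitted log2 fold change of 6.73 ± 0.67 (adjusted p = 1.19e-06) rests on those few preadipocyte counts, most at or near the floor of 3 counts, and it ranged from 2.51 to 7.21 over the alternative settings. It was called in each of them.

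Dgat1 and Dgat2, which are unrelated in sequence although they catalyse the same last step, differed in how far they rose. Dgat2 (chromosome 7, 99153658 to 99182719, minus strand) stood at 1549, 3545 and 2064 CPM in stress adipocytes and 3529, 1682 and 2531 CPM in control adipocytes. In preadipocytes it stood at 49.4, 42.9, 10.9 and 15.03 CPM under stress and 43.0, 29.6, 39.5 and 17.1 CPM in controls. The fractions were far apart, at 80.9-fold (log2 6.34 ± 0.45, adjusted p = 6.20e-08). Dgat1 (chromosome 15, 76502015 to 76511953, minus strand) stood at 211, 807 and 307 CPM in stress adipocytes, at 275, 201 and 273 CPM in control adipocytes and at 34.9 to 66.9 CPM in high-fat preadipocytes, a 6.94-fold difference (log2 2.80 ± 0.34, adjusted p = 6.79e-06).

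The enzymes that supply glycerol 3-phosphate differed widely in how far they rose, with Gpd1 and Pck1 at the upper end of the set and Gk near the lower end. Gpd1, which reduces dihydroxyacetone phosphate (chromosome 15, 99717515 to 99725005, plus strand), stood at 1457, 3378 and 1660 CPM in stress adipocytes and 1694, 1965 and 1020 CPM in control adipocytes, against 8.66 to 26.6 CPM in high-fat preadipocytes (log2 6.99 ± 0.35, 127-fold, adjusted p = 5.45e-09). Pck1 (chromosome 2, 173153048 to 173159273, plus strand) stood at 1063, 2238 and 379 CPM in stress adipocytes and 905, 378 and 696 CPM in control adipocytes. In preadipocytes it stood at 7.95, 6.76, 0.74 and 1.13 CPM under stress and 5.55, 11.6, 7.02 and 10.03 CPM in controls. Its fold change, the largest fitted one (log2 7.21 ± 0.72, adjusted p = 1.19e-06), was within its SE of that of Gpd1, and the order turned with the libraries. Without stress preadipocyte libraries 3 and 4 Pck1 was at 6.67 and Gpd1 at 6.84, without stress adipocyte library 2 Pck1 was at 6.79 and Gpd1 at 6.87, and with limma on log2(FPKM + 1) Pck1 was at 6.38 and Gpd1 at 6.67. In control libraries alone Pck1 was at 6.21 (73.9-fold), below Gpd1 (7.22), Mogat1 (6.73) and Dgat2 (6.51). Pck1 had the widest spread among high-fat preadipocyte libraries of the 9 enzymes with counts in all of them, 15.8-fold between lowest and highest. Gk (X chromosome, 85701937 to 85776819, minus strand) stood at 33.3, 160 and 158 CPM in stress adipocytes, at 24.2, 41.9 and 12.8 CPM in control adipocytes and at 5.38 to 16.4 CPM in high-fat preadipocytes. Its fold change was 5.38 (log2 2.43 ± 0.46, adjusted p = 0.000377), and control adipocyte library 3 lay inside the preadipocyte range.

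Promoter sequences from RefSeq (GRCm38.p6) were available for 7 of the 10 enzymes, as 8 promoters; Dgat1, Dgat2 and Gpd1 had none in the table used. Of these, 3 are shown because their genes differed in pattern: Pck1 had the largest fitted rise and widely spread preadipocyte values, Agpat2 the tightest preadipocyte values, and Gk, like Gpam, a small rise with overlapping fractions. Each run holds the 250 bases before the RefSeq start site, 5′ to 3′ along the gene, and capitals mark a matched motif.
Pck1, chr2:173152823-173153072, plus strand: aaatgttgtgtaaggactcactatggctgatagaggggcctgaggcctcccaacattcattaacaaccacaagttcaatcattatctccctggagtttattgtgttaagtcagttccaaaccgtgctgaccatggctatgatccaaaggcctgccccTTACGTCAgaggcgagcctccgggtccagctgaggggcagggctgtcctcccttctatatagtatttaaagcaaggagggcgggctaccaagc
Agpat2, chr2:26604418-26604667, minus strand: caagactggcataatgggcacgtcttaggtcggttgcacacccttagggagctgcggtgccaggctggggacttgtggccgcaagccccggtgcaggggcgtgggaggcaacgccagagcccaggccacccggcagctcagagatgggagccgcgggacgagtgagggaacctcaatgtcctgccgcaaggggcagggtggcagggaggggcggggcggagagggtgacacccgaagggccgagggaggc
Gk, chrX:85776820-85777069, minus strand: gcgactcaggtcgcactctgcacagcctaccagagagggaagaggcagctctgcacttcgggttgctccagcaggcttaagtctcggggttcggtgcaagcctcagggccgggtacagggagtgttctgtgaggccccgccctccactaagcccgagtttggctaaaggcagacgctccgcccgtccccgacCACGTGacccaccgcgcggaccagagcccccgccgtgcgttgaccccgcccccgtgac
The capitals in Pck1 are TTACGTCA, a variant of the cAMP response element known from the rat gene, which lies 93 to 86 bases before the start and occurs in 0.447% of 32851 promoters of the same length. The capitals in Gk are the E-box CACGTG, 58 to 53 bases before the start, found in 6.02% of promoters. Agpat2 held none of the motifs searched on both strands, which also included the full cAMP response element TGACGTCA, the CCAAT box, the TATA box as TATAAA, the sterol element as TCACNCCAC, the C/EBP element as TTGCGCAA, the PPAR direct repeat and the glucocorticoid element. The upstream of 2 Gpam promoters held CCAAT (on the opposite strand, 74 to 70 bases before the start), as do 33.8% of promoters, and the promoters of Gpat3, Lpin1 and Mogat1 held none of these letters. The bases G and C made up 69.2% of the Agpat2 run, 67.2% of the Gk run, 50.8% of the Pck1 run and 41.2% of the Mogat1 run, with a median of 52.4% over all promoters.

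Between genes, levels were compared as FPKM, which is per gene length. The order and the family shares rest on the 1 length given per gene, such as 9665 bases for Lpin1, 7743 for Gk and 2130 for Agpat2. Whether the transcripts present have these lengths was not tested. In high-fat adipocytes the order was Dgat2 (791 ± 311), Gpd1 (606 ± 262), Agpat2 (403 ± 252), Pck1 (268 ± 196), Dgat1 (110 ± 73.4), Gpam (43.4 ± 19.1), Gpat3 (42.5 ± 30.6), Lpin1 (39.5 ± 24.3), Gk (8.77 ± 8.28) and Mogat1 (5.66 ± 4.03 FPKM, SD, n = 6). Neighbours in that order differed by less than the larger of their SDs, except Lpin1 and Gk. In high-fat preadipocytes the order was Dgat1 (15.6 ± 5.06), Gpam (10.7 ± 5.43), Dgat2 (9.74 ± 5.29), Agpat2 (7.23 ± 0.62), Gpd1 (5.10 ± 2.51), Lpin1 (3.85 ± 0.82), Pck1 (1.90 ± 1.25), Gpat3 (1.66 ± 0.52), Gk (1.40 ± 0.50) and Mogat1 (0.048 ± 0.053 FPKM, SD, n = 7). Here the neighbours that differed by more than both SDs were Lpin1 and Pck1, and Gk and Mogat1. Dgat2 and Gpd1 headed the adipocyte order, and Dgat1 and Gpam the preadipocyte order.

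Shares of RNA within isoenzyme families also differed between fractions. A larger share of the named enzyme did not always go with a fall of the others. Dgat1, Agpat1, Agpat3, Agpat5 and Gpat4 rose as well and Pck2 was not called, while Lpin2, Lpin3 and Agpat4 fell. The share of each family's summed FPKM taken by the named enzyme does not depend on scaling between libraries. Agpat2 held 79.9 ± 5.5% of the FPKM of Agpat1 to Agpat5 in adipocytes and 14.5 ± 1.4% in preadipocytes (SD, n = 6 and 7). Lpin1 held 90.1 ± 3.9% of the lipins in adipocytes and 32.3 ± 4.3% in preadipocytes, where Lpin2 and Lpin3 took 33.4% and 34.2%. Dgat2 held 88.1 ± 3.8% of the Dgat1 and Dgat2 total in adipocytes and 36.4 ± 10.5% in preadipocytes, so that Dgat1 was the larger in 6 of 7 preadipocyte samples.

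Pck1 held 97.7 ± 1.2% of the carboxykinase FPKM in adipocytes and 27.6 ± 15.8% in preadipocytes, where the mitochondrial isoenzyme Pck2 took the rest. Its lowest shares were in stress preadipocyte libraries 3 and 4. These 4 shares did not overlap between fractions. Each had the smallest p the exact two-sided permutation test over 6 and 7 samples can give, 0.00117 (0.00146 after Benjamini-Hochberg adjustment over 5 shares). The 4 shares come from the same reads as the fold changes above, so these p-values are no separate support. Gpam differed: it held 40.0 ± 12.6% of the GPAT family in adipocytes and 46.0 ± 9.9% in preadipocytes, a difference of -5.99 percentage points (exact permutation p = 0.364, adjusted 0.364). In that family Gpat3 took 35.6 ± 9.8% in adipocytes and 7.51 ± 2.36% in preadipocytes, and Gpat4 took 24.3 ± 7.1% in adipocytes and 46.1 ± 8.9% in preadipocytes, values singled out after they were seen. In the low-fat preadipocytes of stressed mice and of controls, Agpat2 held 13.7% and 9.53%, Lpin1 25.6% and 26.7%, Dgat2 36.9% and 23.9%, and Pck1 22.4% and 26.5%.

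**Figure D2:**
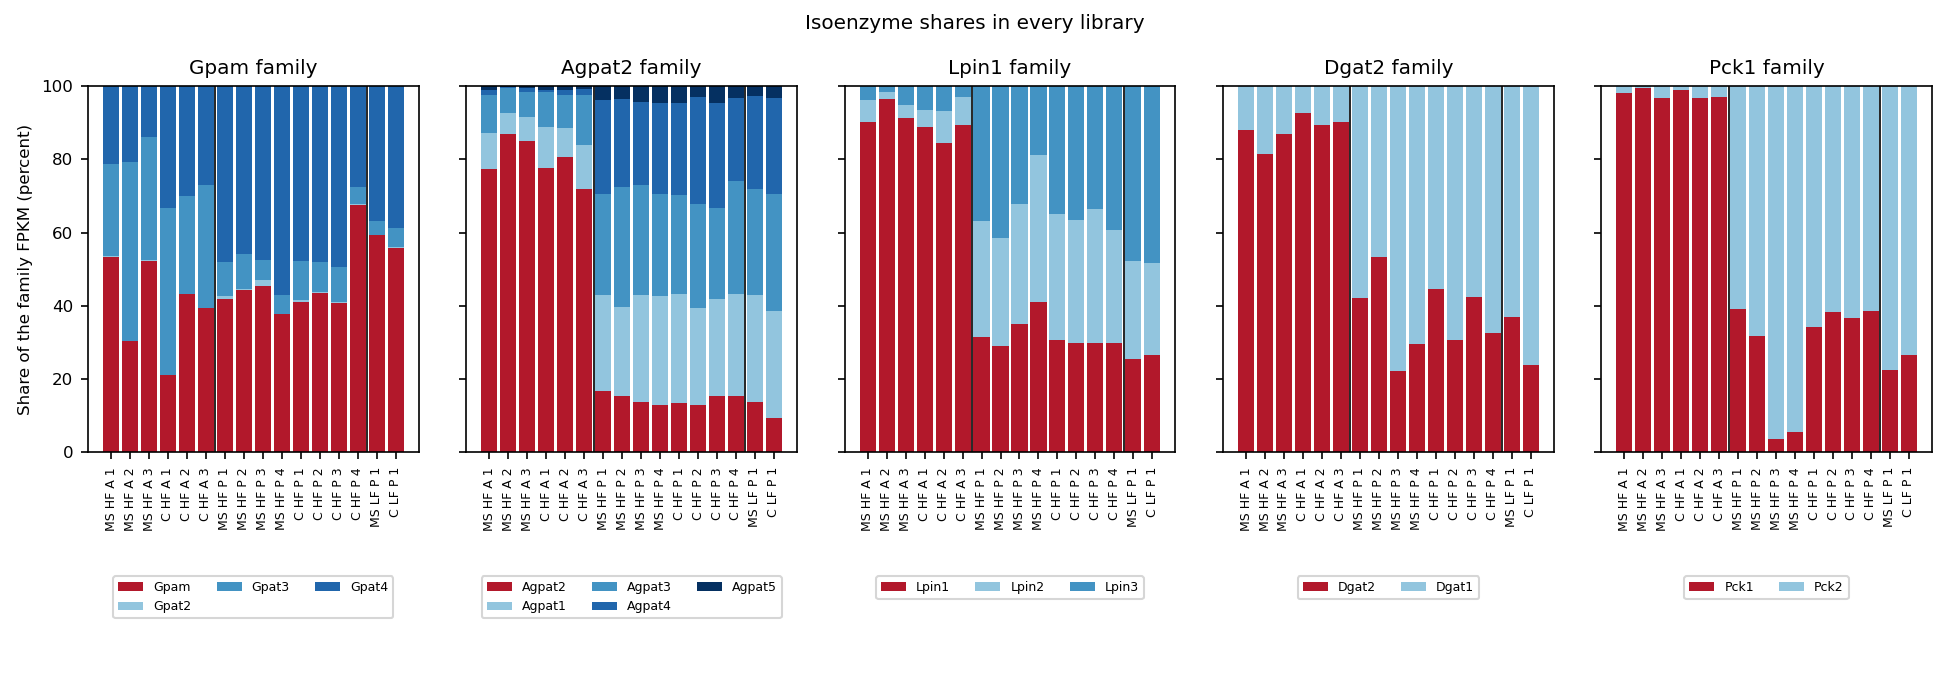
Stacked bars give each family member's percent of the family FPKM in every library, with the named enzyme in red at the base; vertical lines part high-fat adipocytes, high-fat preadipocytes and low-fat preadipocytes. The red share is at least 71.9 percent in every adipocyte library for Agpat2, Lpin1, Dgat2 and Pck1 and lower in every preadipocyte library, while that of Gpam overlaps.

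The other genes of the pathway moved both ways. Of 32 listed, 30 were tested (Gpat2 and Gk2 did not pass the filter on low counts); 16 rose, 9 fell and 5 were not called, with a median log2 fold change of 0.54. The largest rises were Pcx, the pyruvate carboxylase that feeds glyceroneogenesis (log2 6.42 ± 0.31, adjusted p = 4.00e-09), Acsl1, the acyl-CoA synthetase that activates fatty acids (6.18 ± 0.35, adjusted p = 1.27e-08), and the Mogat1 paralog Mogat2 (6.05 ± 0.71, adjusted p = 5.14e-06). Pcx stood at 1206.5 to 3269 CPM in adipocytes and 13.9 to 30.0 CPM in high-fat preadipocytes. Mogat2 had only 7 and 6 counts in the stress and control low-fat preadipocyte libraries, near the floor of 3 counts. Those libraries were not in this fit. The largest falls were Acsl6 (-3.91 ± 0.69, adjusted p = 0.000194), which was under 3 CPM in every library, the glycerol kinase paralog Gk5 (-2.54 ± 0.21, adjusted p = 2.49e-07) and Agpat4 (-1.48 ± 0.20, adjusted p = 1.98e-05).

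Among paralogs of the enzymes, Gpat4, Agpat1, Agpat3 and Agpat5 rose by 0.80 to 1.56 on the log2 scale, less than any of the 10 enzymes. Lpin2 and Lpin3 fell by 1.02 and 1.21 on that scale (adjusted p = 0.000912 and 0.00207). The Gpd1 paralog Gpd1l and the mitochondrial glycerol-3-phosphate dehydrogenase Gpd2 rose by 0.50 and 0.74. Pck2 differed by -0.09 ± 0.21 and did not pass (adjusted p = 0.738). The glycerol channel Aqp7 (4.42), triose phosphate isomerase Tpi1 (3.18), malate dehydrogenase Mdh1 (3.02) and the pyruvate dehydrogenase kinase Pdk4 (3.07) also rose, in log2 fold change. So did the lipid-droplet assembly genes Fitm2 (4.29) and Bscl2 (3.53). Of the 10 glycerol 3-phosphate and glyceroneogenesis genes tested, 7 rose, 2 fell (Gk5 and Got1) and 1 was not called. Among the 5 acyl-CoA synthetases 1 rose and 2 fell. Among the 4 lipin and lipin phosphatase genes 1 rose and 3 fell.

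**Figure D3:**
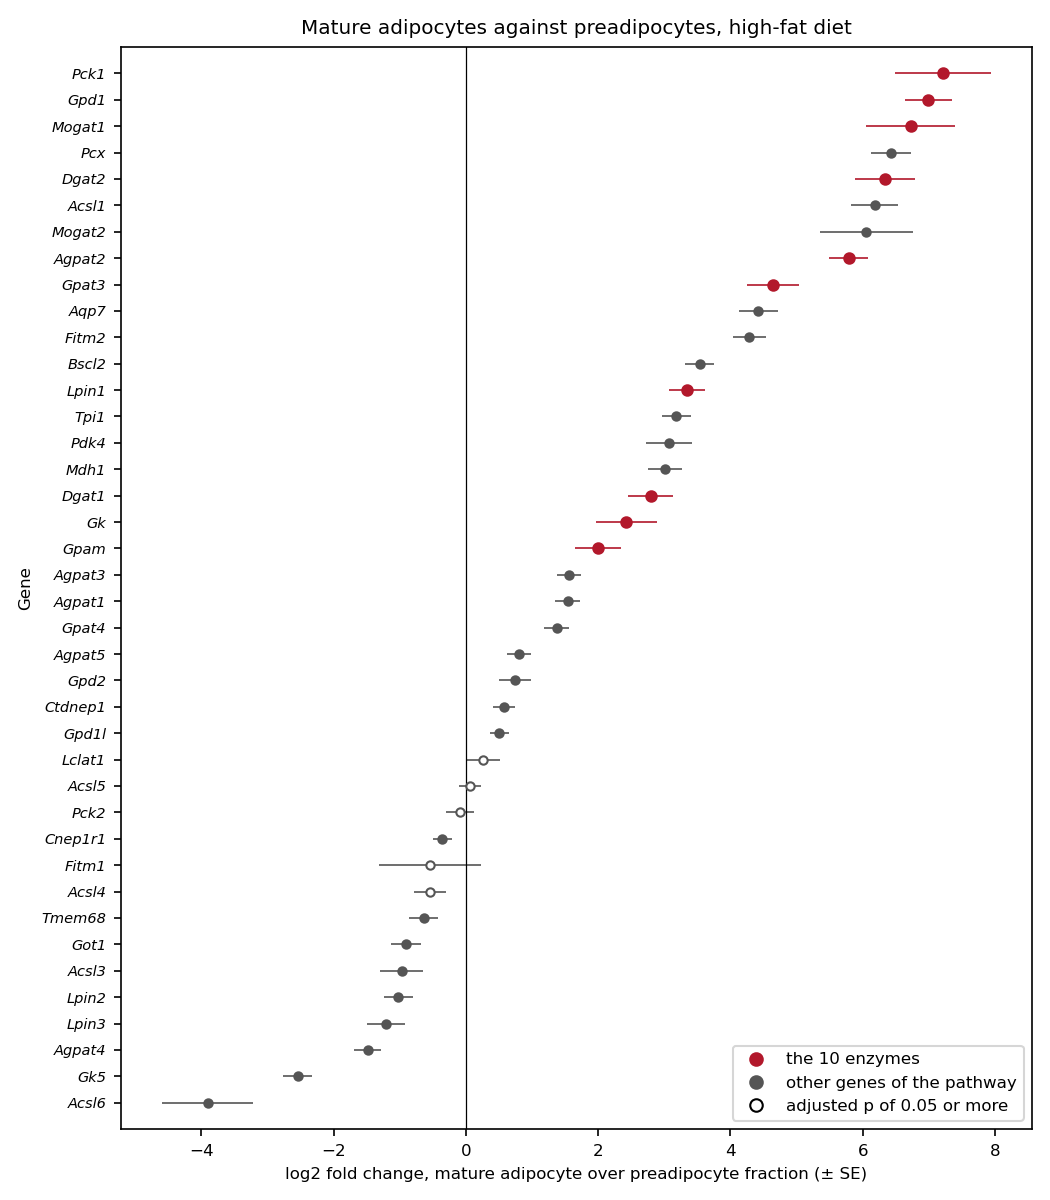
Points give log2 fold changes (mature adipocytes over preadipocytes, high-fat diet) with SE bars for the 10 enzymes in red and 30 other pathway genes in grey; open points did not pass adjusted p of 0.05. All red points lie at 2.00 or above, and the grey points spread from -3.91 to 6.42.

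Each enzyme was also set against Adipoq in the same library, as a description. Stress preadipocyte libraries 3 and 4, with few Adipoq counts, weigh heavily on these ratios, so each is given over all high-fat samples and then without them. The log2 level relative to Adipoq (adipocytes minus preadipocytes) differed by -0.32 and then -0.14 for Pck1, by -0.74 and then 0.20 for Gpd1, whose sign turned, and by -1.21 and then -0.55 for Dgat2. Agpat2 differed by -2.04 and then -0.93, and Gpat3 by -3.19 and then -2.39. For Lpin1, Dgat1, Gk and Gpam the ratio to Adipoq was 22.0-fold, 31.7-fold, 45.6-fold and 51.2-fold higher in preadipocytes over all samples, and 9.52-fold, 16.6-fold, 18.4-fold and 27.0-fold higher without the 2 libraries. Relative to Plin1, the lipid droplet coat gene, Pck1, Gpd1 and Dgat2 differed by 1.08, 0.66 and 0.20 over all samples and by 0.26, 0.60 and -0.15 without the 2 libraries; the other enzymes were below 0 both ways, with Gpam at -4.27 and then -4.36. With or without these libraries, Lpin1, Dgat1, Gk and Gpam had many more transcripts per Adipoq or Plin1 transcript in preadipocyte libraries. Pck1, Gpd1 and Dgat2 stood within 2.31-fold of the same ratio in both fractions. Any gene that rose much less than Adipoq and Plin1 gives a higher ratio in preadipocytes. As the median log2 fold change over all genes tested was -0.25, such a ratio is not particular to these enzymes. Whether the preadipocyte transcripts come from adipocytes carried over or from the progenitors was not tested.

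**Figure D4:**
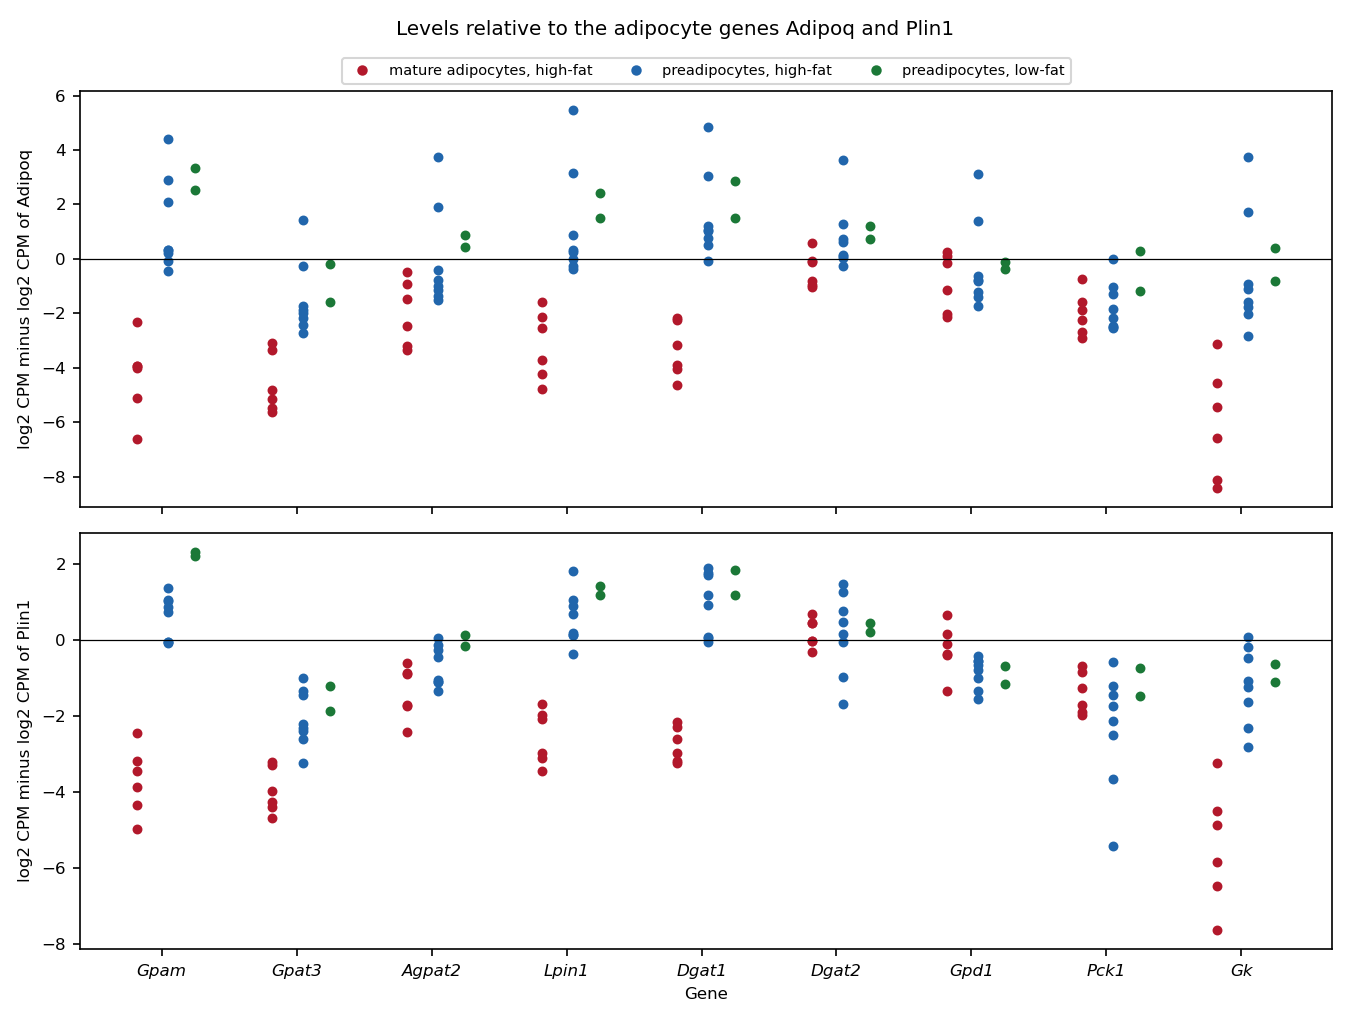
Points are libraries; the vertical axes give the log2 CPM of an enzyme minus that of Adipoq (upper panel) or Plin1 (lower panel). Fractions overlap for Pck1, Gpd1 and Dgat2 and are apart for Gpam, Lpin1, Dgat1 and Gk in both panels; Mogat1 is left out for its counts of 0 to 5 in preadipocytes. Among the high-fat preadipocyte points of the upper panel, stress library 4, where Adipoq was lowest, is the highest for each enzyme shown.

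The genes whose pattern was most like each enzyme were found by the root mean square distance between log2 CPM profiles, each centred on its mean, over 13 high-fat libraries and 14594 genes. Agpat2 was nearest to Acsl1 (0.26) and Arxes2 (0.30), the smallest distances found. Dgat1 was nearest to Ppa1 (0.30), Lpin1 to 1700037H04Rik and Dolk (both 0.31), Gpam to Fam126b (0.34) and Gpat3 to Aifm2 (0.35). Dgat2 was nearest to Ctcflos (0.42) and Scd1 (0.46), and Gpd1 to Mrap (0.45) with Pcx as its next but one (0.51). Mogat1 was nearest to Lipe (0.56), Pck1 to Adig (0.61) and Gk to Nus1 (0.63), the loosest matches. Agpat2 was also among the 3 nearest to Mogat1 (0.60), and no other enzyme was among the 3 nearest of another.

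Early life stress called none of the enzymes in mature adipocytes: 0 of 10, where 0.0% of 14485 genes tested were called (417 genes, Gpam and Gk among them, had unadjusted p below 0.05; DESeq2 called 9 genes and no enzyme). Of the fold changes, 9 of 10 were positive with a median of 0.84 on the log2 scale, against -0.01 over all genes. That median rests on stress library 2, in which 9 of the 10 enzymes, all but Gpam, had their highest adipocyte value: without it the median was 0.17 and 6 of 10 were positive. Of the 10 adipocyte markers 8 were negative, with a median of -0.37. Their sum was 44545 CPM in stress library 2, against 29538 and 20202 CPM in stress libraries 1 and 3. In control libraries 1, 2 and 3 it was 62948, 18754 and 39203 CPM. Among other cell types, the 2 urothelial markers tested were negative (median log2 -4.19) and the 3 erythroid markers positive (0.72). The macrophage (-0.39) and endothelial (0.32) markers were mixed in sign. No marker passed the test. The 3 urothelial markers summed to 119, 2.69 and 50.8 CPM in control libraries 1, 2 and 3, and to 3.03 to 4.22 CPM under stress. Macrophage markers summed to 1456 to 4705 CPM in controls and 1305 to 2851 CPM under stress. The part of adipocyte or other cell content in the enzymes' values was not tested.

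Gpam was the enzyme whose groups did not overlap, at 211 to 274 CPM in stress adipocytes and 69.5 to 128 CPM in control adipocytes; 3.58% of genes tested were higher without overlap. Its log2 fold change was 1.14 ± 0.35 (adjusted p = 0.9996), and 1.15 ± 0.41 without stress library 2. Gk differed by 2.07 ± 0.59 (adjusted p = 0.9996), with stress libraries 2 and 3 at 160 and 158 CPM and stress library 1, at 33.3 CPM, inside the control range of 12.8 to 41.9 CPM. With no filter on low counts Gk passed (adjusted p = 0.000349), the only setting in which an enzyme was called.

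The remaining log2 fold changes under stress in adipocytes were 0.94 ± 0.50 (Gpat3), 0.88 ± 0.44 (Agpat2 and Lpin1), 0.79 ± 0.57 (Pck1), 0.72 ± 0.47 (Dgat1), 0.63 ± 0.58 (Mogat1), 0.39 ± 0.41 (Gpd1) and -0.21 ± 0.41 (Dgat2). None passed the test. Without stress library 2, Dgat1, Mogat1 and Gpd1 were at -0.01, -0.19 and -0.05. Dgat2 was negative there too, and leaving out 1 library at a time gave it -0.57 to 0.0551. Gpat3, Agpat2, Lpin1 and Pck1 were then at 0.26, 0.32, 0.35 and 0.07. Without the low-complexity control libraries 1 and 3, which leaves 1 control library assumed to vary like the stress libraries, Pck1 was at 1.62, Gpat3 at 1.61, Gk at 1.41, Mogat1 at 1.14, Dgat1 at 1.06, Gpam at 1.05, Dgat2 at 0.44 and Gpd1 at 0.07. Of the other pathway genes, 28 were tested and 0 called, with 16 positive and 12 negative.

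**Figure D5:**
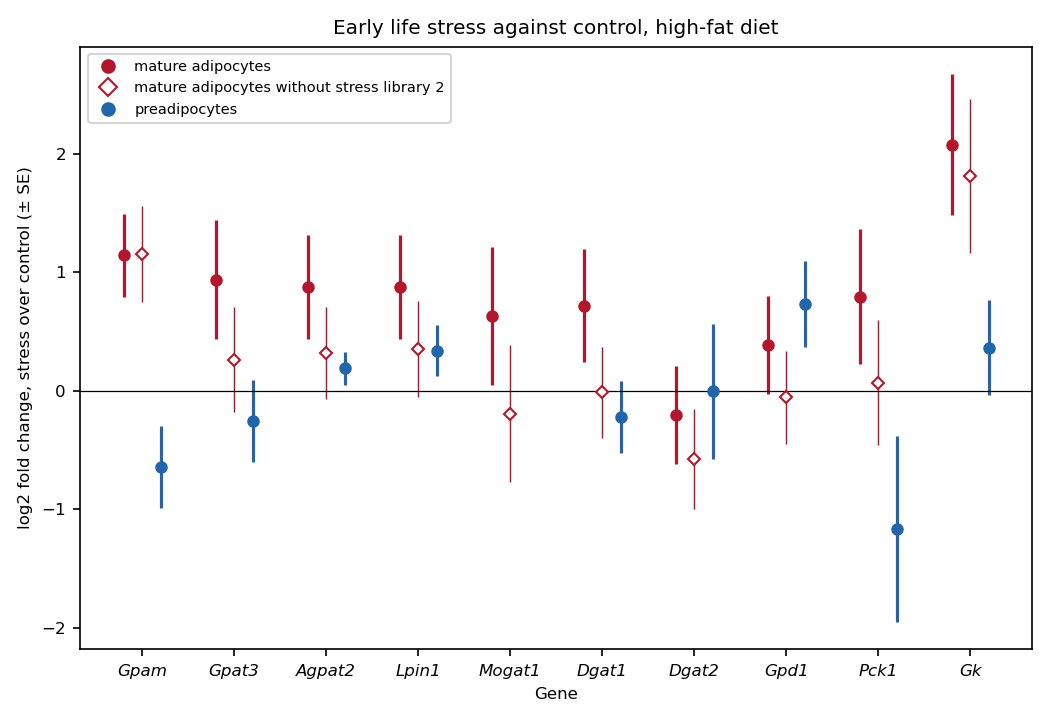
Points give the log2 fold change of stress over control with SE bars, in mature adipocytes (red), in mature adipocytes without stress library 2 (open diamonds) and in preadipocytes (blue; Mogat1 was not tested). In adipocytes Gpam and Gk keep values of 1.15 and 1.81 without that library. Dgat1, Gpd1, Mogat1 and Pck1 then lie between -0.19 and 0.07, and Dgat2 is negative.

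In high-fat preadipocytes, stress called 0 of 9 enzymes tested, where 0.0% of 17129 genes were called (496 genes and no enzyme had unadjusted p below 0.05; DESeq2 called 4 genes and no enzyme). Mogat1 did not pass the filter on low counts. No enzyme's groups were apart, against 3.67% of genes tested. Of the 9 fold changes 4 were positive and 5 negative, with a median of -0.004 against 0.02 over all genes. Gpd1 had the largest positive value, with 26.6, 22.6, 12.02 and 10.6 CPM under stress and 9.71, 8.66, 11.01 and 13.2 CPM in controls (log2 0.73 ± 0.36, adjusted p = 0.973). Its high libraries were stress 1 and 2.

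Pck1 had the largest negative value in preadipocytes, -1.16 ± 0.78 (adjusted p = 0.973). It had 188, 152, 14 and 24 counts in stress preadipocytes and 139, 251, 171 and 228 counts in controls, so that stress libraries 3 and 4 were low and 1 and 2 were not. Adipoq, at 1095, 878, 85 and 24 counts in the stress libraries, was low in the same libraries. Their adipocyte marker sums, 588 and 530 CPM, lay within the control range of 489 to 830 CPM. Their macrophage sums were high, at 4781 and 5743 CPM, against 1110 to 3089 CPM in controls. The part of these 2 libraries in the result was not tested. Without both libraries Pck1 was at -0.34 ± 0.31 and Gpd1 at 1.19 ± 0.22 (adjusted p = 0.999 for each). Gpam differed by -0.65 ± 0.35, with control library 4 at 86.9 CPM against 26.1 to 36.9 CPM in the other high-fat preadipocyte libraries, and by -0.04 without that library. The remaining values were 0.37 ± 0.40 (Gk), 0.34 ± 0.22 (Lpin1), 0.19 ± 0.14 (Agpat2), -0.004 ± 0.57 (Dgat2), -0.22 ± 0.30 (Dgat1) and -0.26 ± 0.34 (Gpat3). Without stress libraries 3 and 4, Dgat2 was at 0.64, Dgat1 at 0.01, Gpat3 at 0.17 and Gk at -0.15. Markers of other cell types leaned one way without passing the test: the 6 macrophage markers were all positive (median log2 0.62), while the 6 endothelial (-1.25), 4 mural (-0.67), 5 mesothelial (-1.18), 4 B cell (-1.08), 4 T and NK cell (-0.46), 3 erythroid (-0.92) and 3 urothelial markers (-5.27) were all negative. The macrophage markers summed to 836 to 5743 CPM under stress and 1110 to 3089 CPM in controls, and the endothelial ones to 73.0 to 229 CPM under stress and 184 to 578 CPM in controls. The part of these in the enzymes' values was not tested. Of the other pathway genes 30 were tested and 0 called, 19 of them positive.

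Whether the stress effect differed between fractions was tested as an interaction. None of the 10 enzymes was called, where 0.0% of 17948 genes tested were (873 genes had unadjusted p below 0.05; DESeq2 called 3 genes and no enzyme). Gpam had the smallest p, with a stress effect 1.81 ± 0.50 larger in adipocytes on the log2 scale (adjusted p = 0.934), followed by Gk at 1.76 ± 0.74 (adjusted p = 0.934). Without control preadipocyte library 4 Gpam was at 1.21. The median over the 10 enzymes was 0.85, and 0.21 without stress adipocyte library 2. Pck1 and Gpat3 stood at 1.94 ± 1.06 and 1.198 ± 0.64, and the other enzymes between -0.34 (Gpd1) and 0.97 (Dgat1).

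The diet could be compared in preadipocytes, with 7 samples on the high-fat and 2 libraries on the low-fat diet. None of the 9 enzymes tested was called, where 0.0% of 18468 genes were (2360 genes, Gpd1 and Agpat2 among them, had unadjusted p below 0.05; DESeq2 called 422 genes and no enzyme). Of the fold changes, 8 were positive and 1 negative, with a median of 0.49 against 0.02 over all genes. Gpd1 had 8.66 to 26.6 CPM on the high-fat diet, against 8.14 CPM in the stress and 4.66 CPM in the control library on the low-fat diet, the only enzyme without overlap upward (7.43% of genes tested). Its log2 fold change was 1.16 ± 0.38 (adjusted p = 0.328). Agpat2 had 12.8 to 17.1 CPM on the high-fat diet and 14.2 and 9.36 CPM in the stress and control low-fat libraries (0.37 ± 0.16, adjusted p = 0.378).

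Gpam was the enzyme with a negative diet value, -0.52 ± 0.36 (adjusted p = 0.548), with 26.1 to 36.9 CPM in 7 high-fat libraries, 86.9 CPM in control library 4, and 60.6 and 53.1 CPM in the stress and control low-fat libraries. It was at -0.06 without the stress low-fat library and at -0.79 without control library 4. The others were at 0.98 ± 0.61 (Dgat2), 0.73 ± 0.43 (Gk), 0.55 ± 0.36 (Gpat3), 0.49 ± 0.31 (Dgat1), 0.32 ± 0.22 (Lpin1) and 0.18 ± 0.80 (Pck1). The adipocyte markers moved in the same direction, 9 of 10 positive with a median of 0.77, and summed to 489 to 830 CPM on the high-fat diet, against 497 and 279 CPM on the low-fat diet under stress and in controls. The macrophage markers were positive in 6 of 6, with a median of 1.54, as were the 4 mural (0.57) and 4 B cell markers (0.73). The 8 progenitor (-0.49), 6 endothelial (-0.85) and 3 erythroid markers (-1.54) were all negative. The part of these in the enzymes' values was not tested.

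On the low-fat diet the stress library and the control library were compared without a test, since there was 1 of each and no replicate check. Of the 15000 genes that reached 1 CPM in 1 of them, 4.58% were more than 2-fold higher and 2.61% more than 2-fold lower in the stress library. Of the enzymes, Gpd1 (8.14 and 4.66 CPM in the stress and control library, log2 ratio 0.79), Agpat2 (0.60) and Dgat2 (0.55) had the highest ratios, and none of the 9 enzymes with counts in both libraries was past 2-fold. Gpam, Lpin1 and Gk were at 0.19, 0.09 and -0.17, Gpat3 and Dgat1 each at -0.35 and Pck1 at -0.42, with 98 counts in the stress and 153 counts in the control library. Mogat1 had 0 counts in the stress and 4 counts in the control library, and no ratio is given.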

How the data were processed

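Total RNA of 16 libraries was sequenced paired-end (NovaSeq, per the labels' protocols). Fat was digested with collagenase, the floating mature fraction was parted from the stromal vascular fraction, and magnetic sorting followed with antibodies not named in the labels. The series title speaks of single cells, but each library is 1 column of values per gene, analysed as bulk RNA. The authors deposited raw read counts and FPKM per gene. STAR 2.6.1d, DESeq2 1.20.0, edgeR 3.24.3 and the builds mm10 and GRCm38 are named, per the submitters' processing notes. The counter, strandedness and annotation release were not given in the sources used here. The deposited FPKM are exactly proportional to count per length and library size, with a factor of 0.86 to 1.26 that is fixed within a library, so they had been scaled across libraries.

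Here the counts were tested with edgeR 4.0.16 in R 4.3.3 (TMM, filterByExpr, robust quasi-likelihood F test), fitted on all genes with Benjamini-Hochberg adjustment at 0.05; SE is the log2 fold change over the root of F. Fractions and diets were compared with early life treatment as a covariate, stress within each fraction separately. CPM uses TMM factors over all libraries. Control high-fat preadipocyte libraries 1 and 3 (chi-square per gene 4.03 against at least 30.0 in other pairs, over genes with at least 20 counts) were summed in fits and averaged in means. Shares came from FPKM. The fits were tested on simulated data. Alternatives were DESeq2 1.42.0, limma 3.58.1 on log2(FPKM + 0.1) and log2(FPKM + 1), other filters and scalings, a replicate block, and leaving out libraries. The removal of stress preadipocyte libraries 3 and 4 was chosen after seeing the data. The 10 enzymes, the other pathway genes and the marker lists were chosen with earlier results of these data known. All 10 enzymes are named in each comparison. Of the other pathway genes, the enzymes' paralogs and the 3 largest called fold changes in each direction are named. A few more rises and the fall of Got1 were named after their values were seen. At these totals the floor of 3 counts corresponds to 0.128 to 0.212 CPM, covering counting error only.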

Additional observations from a re-analysis of the deposited data

Results flagged for a closer look

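One library stood apart from its group. Dgat1, the acyltransferase of the last step, was at 66.9 CPM in stress preadipocyte library 1 on the high-fat diet, against 37.2, 37.7 and 35.4 CPM in the other 3 stress preadipocyte libraries. The gap to the nearest of them was 0.927 of the group's whole range. Of 10 groups examined this way, 1 per enzyme, chance alone would single out about 1 in 20. Control preadipocytes on that diet ranged from 34.9 to 66.0 CPM of Dgat1, so the value is near the highest control library.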

How the results depend on the processing

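In the comparison of fractions all 10 enzymes kept their direction under the 26 alternatives, and the 1 call lost was Gpam in control libraries alone (1.06, adjusted p = 0.0825; its adjusted p ranged from 4.60e-08 to 0.0825). Over all genes the control libraries alone called 5998 genes against 10231, and the other pathway genes that fell numbered 4 in control and 5 in stress libraries alone, against 9. Leaving out 1 library at a time gave 9710 to 10663 calls. With no filter on low counts the median of all genes was -0.82 in place of -0.25.

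Under stress, the counts of calls over all genes were 0, and with DESeq2 4 in preadipocytes, 9 in adipocytes and 3 for the interaction. With no filter adipocytes gave 51, with 1 enzyme (Gk) among them, and leaving out 1 library gave 0 to 9, the 9 without control adipocyte library 2. For diet the counts were 422 with DESeq2, 1 with no filter, 1 with limma on log2(FPKM + 0.1) and 0 to 1 with 1 library left out, the 1 without control preadipocyte library 4. No enzyme was called in these diet fits. The cause was not tested.

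The directions that turned belonged to values that had not passed the test. In preadipocytes under stress Dgat2 was at 0.0208 in 1 fit of all high-fat libraries, and without stress libraries 3 and 4 Dgat1, Dgat2, Gpat3 and Gk were at 0.0118, 0.64, 0.17 and -0.15; leaving out 1 library gave -0.37 to 0.27 for Dgat2. In adipocytes under stress Dgat2 was at 0.44 without control libraries 1 and 3. One library left out gave -0.57 to 0.0551 for Dgat2, -0.0116 to 1.05 for Dgat1, -0.19 to 1.0001 for Mogat1 and -0.0535 to 0.59 for Gpd1. In the interaction Dgat2 was at 0.45 without control adipocyte libraries 1 and 3 (range -0.57 to 0.15 with 1 library left out) and Mogat1 at -0.14 without stress preadipocyte libraries 3 and 4 (range -0.79 to 1.02). For diet Pck1 was at -0.11 with limma on log2(FPKM + 0.1) and -0.16 in stress libraries alone (range -0.16 to 0.58).

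Whether replicate numbers pair the libraries is not given in the labels. Correlations of same-numbered libraries ran from -0.18 to 0.14 between fractions, from -0.07 to 0.33 in preadipocytes and from -0.25 to 0.03 in adipocytes. In these, 3 of 6, 2 of 4 and 0 of 3 numbers correlated best with their own. With so few libraries a group, such correlations cannot settle pairing, since differences in cell content or handling can hide it. With the replicate block all 10 enzymes were called between fractions (10220 genes in all), 2 genes under stress in preadipocytes, and 0 in adipocytes and for the interaction. Dgat2 was then at 0.14 and Mogat1 at -0.00909 in the interaction, and the shares of Gpam, Agpat2, Lpin1, Pck1 and Dgat2 differed by -2.902, 65.2, 59.1, 67.1 and 48.8 percentage points. No paired analysis was possible for diet because the diets share only replicate number 1. There were 3 or 4 libraries a group on the high-fat diet and 1 on the low-fat diet. In the stress and diet comparisons even changes of several SEs, such as that of Gk under stress in adipocytes, did not pass. An enzyme that was not called there may still differ. Mogat1 in preadipocytes is limited by depth.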
